A study of Mus musculus with 24 samples.

Results

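The growth factor genes described here are those of the fibroblast growth factor (FGF), bone morphogenetic protein and growth differentiation factor (BMP and GDF), platelet-derived growth factor (PDGF), vascular endothelial growth factor (VEGF), insulin-like growth factor (IGF) and hepatocyte growth factor (HGF) families. They were chosen by symbol alone: Fgf, Bmp or Gdf followed by a number, Pdgfa to Pdgfd, Vegfa to Vegfd, Igf1, Igf2 and Hgf. The array carried 53 such genes on 56 probe sets, out of 1246 probe sets in all, of which 962 matched 908 named mouse genes. There were 22 FGF genes, 11 BMP genes, 9 GDF genes, 4 PDGF genes, 4 VEGF genes, 2 IGF genes and Hgf. The 3 genes with several probe sets (Fgf9, Fgf14 and Gdf3) are represented by the probe set with the highest mean signal.

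RNA of whole mouse retina was hybridised to an Affymetrix array focused on glycobiology, and the values are log2 signals made with RMA, a method that gives each probe set 1 value per array. RP mutant mice (P347S+), a transgenic line carrying the P347S form of rhodopsin in which rod photoreceptors are gradually lost, were compared with normal mice (P347S-) at each month of age from 1 to 4, with 3 arrays for each genotype and age and 24 in all. The labels name no strain, give the sex as unknown and do not state what drives the transgene, and the 4 ages were chosen to cover early to late stages of the loss. Whether a group's arrays stand for 3 different animals is not stated, so each p measures the spread between arrays, which may be technical, and their number limits the precision.

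These families are secreted signals. FGFs bind receptor tyrosine kinases with heparan sulfate as a cofactor, BMPs and GDFs bind paired serine/threonine kinase receptors and are held back by secreted antagonists, and PDGFs, VEGFs, IGFs and HGF each act through receptor tyrosine kinases of their own. In the retina, FGFs and IGFs are known as survival factors for photoreceptors, BMPs pattern the eye and act on Müller glia, the VEGFs and PDGFs shape blood vessels, and Fgf11 to Fgf14 are intracellular relatives that bind sodium channels in neurons and do not act as classical receptor ligands.

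Over the 4 ages, 13 of the 53 growth factor genes were higher in mutant retinas and 0 were lower. They were Fgf1, Fgf2, Fgf5, Fgf13 and Fgf14, Bmp1, Bmp3, Bmp5 and Bmp15, Pdgfc, Vegfc, Igf1 and Igf2. The rises were small, between 0.17 and 0.39 on the log2 scale, or 1.13-fold to 1.31-fold. In RNA of a whole tissue, a change in the number of cells of a type and a change in RNA per cell cannot be told apart.

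The difference over the 4 ages is the mean of the 4 mutant minus normal differences, from limma's linear model on all 24 arrays, with p adjusted across the 1246 probe sets by Benjamini-Hochberg and a threshold of 0.05. The 13 genes were 24.5% of the growth factor genes. Among all probe sets 13.8% were higher in mutant retinas and 8.83% were lower, 22.6% together. At an unadjusted p under 0.05 limma counted 19 of the 53, beside 444 of all probe sets (35.6%). The 6 that missed after adjustment were Fgf12, Vegfa and Bmp6 on the higher side and Fgf3, Vegfd and Fgf17 on the lower side. The median difference was 0.01 for the 53 genes and -0.04 for all probe sets. Of the 53 differences 29 were above 0 (54.7%), as were 37.9% of those of all probe sets. By family, 5 of 22 FGF genes rose (median -0.01), 4 of 20 BMP and GDF genes (median 0.00), 2 of 8 PDGF and VEGF genes (median 0.09) and 2 of the 3 IGF and HGF genes (median 0.17). Of the 13 genes 10 were higher at all 4 ages, Fgf5 and Igf2 at 3 ages and Fgf1 at 2. Of all 53, 12 were higher at every age and 3 (Fgf3, Fgf17 and Bmp8b) were lower at every age, against 14.7% and 17.3% of all probe sets.

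**Figure D1:**
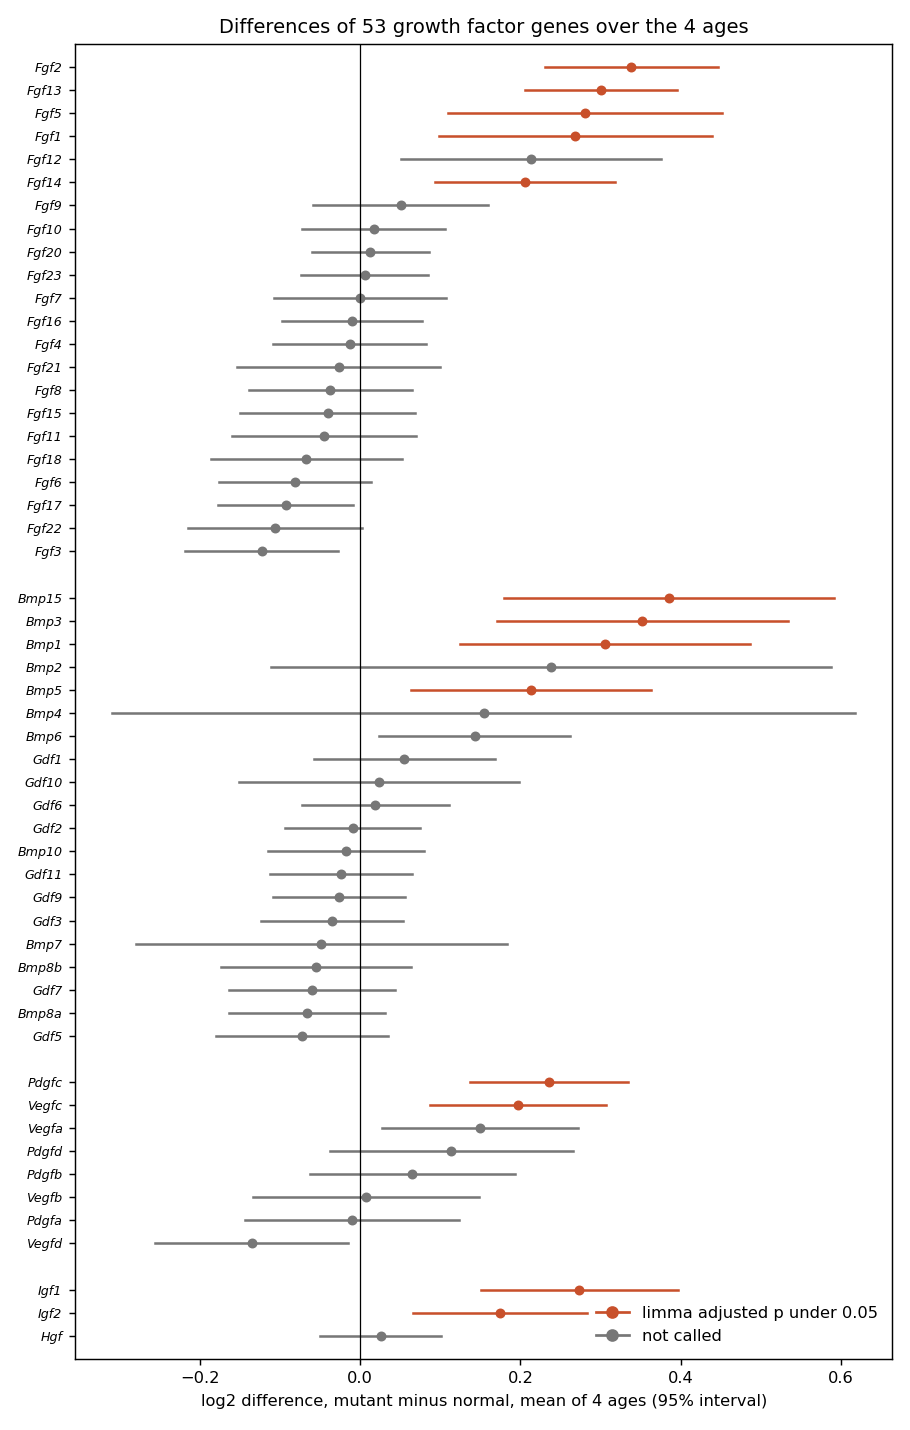
Log2 difference between mutant and normal retinas, averaged over the 4 ages, for each of the 53 growth factor genes (points) with its 95% confidence interval (lines), ordered within families. The 13 genes with a limma adjusted p under 0.05 (red) lie between 0.17 and 0.39, and no gene below 0 reached the threshold.

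Promoter sequence was looked up for the genes that moved, to show what lies upstream of members of different families that rose together. The RefSeq table of promoters (build GRCm38.p6) held 38 of the 53 genes and 10 of the 13 that rose. For each the 250 bases before the transcript start were read, 5′ to 3′ on the gene's strand. They were searched on both strands for AP-1 (TGANTCA), STAT (TTCNNNGAA), a GC box (GGGCGG), the photoreceptor factor CRX (TAATCC), the usual TATA box (TATAAA) and the hypoxia response element core (ACGTG), none of which contains another. The lines below show, for each family, a gene that rose, with matches in capitals. They are Fgf13 (chrX:59585573-59585822, minus strand, the upstream-most of its 4 listed starts), Bmp15 (chrX:6320725-6320974, minus strand), Pdgfc (chr3:81036166-81036415, plus strand), Vegfc (chr8:54077282-54077531, plus strand) and Igf2 (chr7:142666817-142667066, minus strand, the upstream-most of its 4 listed starts).
Fgf13: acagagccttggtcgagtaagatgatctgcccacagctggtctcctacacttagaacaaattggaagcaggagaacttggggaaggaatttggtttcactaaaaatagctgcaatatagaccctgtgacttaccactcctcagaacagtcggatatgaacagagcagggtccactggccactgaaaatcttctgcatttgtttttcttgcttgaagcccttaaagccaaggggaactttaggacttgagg
Bmp15: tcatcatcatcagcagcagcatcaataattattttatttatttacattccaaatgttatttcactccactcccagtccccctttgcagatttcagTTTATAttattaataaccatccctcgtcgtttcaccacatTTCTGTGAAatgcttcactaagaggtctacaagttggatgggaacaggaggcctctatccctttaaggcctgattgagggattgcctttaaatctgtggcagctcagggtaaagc
Pdgfc: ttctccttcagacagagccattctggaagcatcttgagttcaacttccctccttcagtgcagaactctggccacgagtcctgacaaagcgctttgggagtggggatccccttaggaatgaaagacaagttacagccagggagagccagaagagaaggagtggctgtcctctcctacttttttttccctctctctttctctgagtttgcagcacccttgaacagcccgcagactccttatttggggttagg
Vegfc: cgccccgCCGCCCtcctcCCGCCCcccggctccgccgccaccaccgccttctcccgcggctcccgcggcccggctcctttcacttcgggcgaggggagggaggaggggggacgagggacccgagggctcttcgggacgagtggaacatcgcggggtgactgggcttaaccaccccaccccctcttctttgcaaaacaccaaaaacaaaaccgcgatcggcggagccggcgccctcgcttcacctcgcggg
Igf2: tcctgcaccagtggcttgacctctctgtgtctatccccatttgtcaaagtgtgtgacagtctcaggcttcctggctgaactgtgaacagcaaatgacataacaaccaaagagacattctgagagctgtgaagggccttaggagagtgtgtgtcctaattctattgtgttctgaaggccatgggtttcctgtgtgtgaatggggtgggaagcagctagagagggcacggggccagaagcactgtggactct
The window of Vegfc was rich in G and C (71.6%), with 30 CpG dinucleotides and 2 GC boxes. That of Bmp15 had 40.4% G and C, 2 CpG dinucleotides, 1 STAT match (its capitals nearer the start) and 1 TATA match. Fgf13 (45.6% G and C), Pdgfc (50.8%) and Igf2 (50.8%) held none of the searched letters in these windows. Over all 32851 promoters of the table the medians were 52.4% G and C and 6 CpG dinucleotides. A GC box stood in 31 of the 51 windows listed for growth factor genes and in 32.7% of all promoters. AP-1 letters stood in 3 of the 51 (6.75% of all promoters), STAT in 3 (7.02%), the TATA box in 6 (12.4%), the hypoxia core in 7 (16.6%) and CRX in 0 (6.25%). A match is a description of the letters and not a binding site.

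Among the receptor-binding FGFs, Fgf2 (basic FGF, known from Müller glia and as a photoreceptor survival factor) separated the genotypes at each age. In normal retinas its signal was 3.43, 3.49 and 3.38 at 1 month, 3.36, 3.52 and 3.44 at 2 months, 3.38, 3.40 and 3.44 at 3 months, and 3.28, 3.46 and 3.19 at 4 months, with values given here and below in the order of replicates 1, 2 and 3. In mutant retinas it was 3.98, 3.65 and 3.74 at 1 month, 4.01, 3.76 and 3.59 at 2 months, 3.93, 3.62 and 3.84 at 3 months, and 3.55, 3.63 and 3.50 at 4 months. At every age the 3 mutant arrays lay above the 3 normal arrays, although over all ages the ranges met, since the lowest mutant value (3.50) was under the highest normal one (3.52). The difference over the 4 ages was 0.34 ± 0.05 (SE, n = 24 arrays), a 1.26-fold rise (limma adjusted p = 6.18e-05). Its mean signal of 3.57 lies below the 25th percentile of all probe sets (3.83), where background is not known, and its name ends in the suffix s, given to probe sets that can also detect other transcripts, so its fold is uncertain. Only Fgf2 and Pdgfc, of the 53, had mutant arrays above normal arrays at all 4 ages, which 1.93% of all probe sets did.

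Fgf1 (acidic FGF, which binds all FGF receptors) differed mainly at 4 months. Normal retinas read 9.68, 9.48 and 9.96 at 1 month, 9.84, 9.82 and 9.42 at 2 months, 9.55, 9.95 and 9.53 at 3 months, and 9.25, 9.28 and 9.13 at 4 months. Mutant retinas read 9.54, 9.64 and 9.79 at 1 month, 10.15, 9.79 and 10.42 at 2 months, 9.46, 9.66 and 9.79 at 3 months, and 9.78, 10.22 and 9.87 at 4 months. The groups overlapped at the other three ages, while at 4 months every mutant array was above every normal array and the normal arrays were the lowest of the series for this gene. The difference at 4 months was 0.74 ± 0.16, or 1.67-fold (limma adjusted p = 0.00441), against -0.05, 0.42 and -0.04 at 1, 2 and 3 months, and over the 4 ages it was 0.27 ± 0.08 (adjusted p = 0.0208).

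Fgf5 (a secreted FGF known for ending hair growth) read 3.66, 3.11 and 3.52 at 1 month, 3.77, 3.80 and 4.08 at 2 months, 4.47, 4.37 and 3.97 at 3 months, and 3.87, 3.78 and 4.29 at 4 months in normal retinas. In mutant retinas it read 3.78, 3.75 and 3.94 at 1 month, 3.92, 3.76 and 3.58 at 2 months, 4.31, 4.63 and 4.86 at 3 months, and 4.58, 4.44 and 4.51 at 4 months. Mutant arrays lay above normal arrays at 1 and at 4 months and overlapped with them at 2 and 3 months. The difference was 0.28 ± 0.08 over the 4 ages (limma adjusted p = 0.017) and 0.53 ± 0.16 at 4 months (adjusted p = 0.0362). Its mean signal is low (4.03, with suffix s), and without the 3 arrays with a high Grifin signal, described below, the call over the 4 ages was lost (adjusted p = 0.069). The call at 4 months was lost in 10 of 35 alternative fits, among them those without any 1 of 5 of the 6 arrays of that age (limma adjusted p up to 0.153).

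Of the 4 intracellular FGF relatives Fgf13 and Fgf14 rose. Fgf13 had the smallest p of all 53 genes and read 9.83, 9.93 and 9.87 at 1 month, 9.50, 9.42 and 9.47 at 2 months, 9.86, 9.66 and 9.91 at 3 months, and 9.62, 9.92 and 9.88 at 4 months in normal retinas. Mutant retinas read 9.84, 9.88 and 10.07 at 1 month, 9.83, 9.65 and 9.89 at 2 months, 10.08, 10.19 and 10.10 at 3 months, and 10.23, 10.43 and 10.28 at 4 months. The genotypes overlapped at 1 month and did not overlap at 2, 3 or 4 months. The difference was 0.05 ± 0.09 at 1 month, 0.33 ± 0.09 at 2 months (limma adjusted p = 0.0505), 0.31 ± 0.09 at 3 months (0.0315) and 0.51 ± 0.09 at 4 months (0.000768). Over the 4 ages it was 0.30 ± 0.05, or 1.23-fold (adjusted p = 5.67e-05).

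Fgf14 (whose loss is known to cause ataxia) read 5.75, 5.78 and 5.79 at 1 month, 5.71, 5.65 and 5.62 at 2 months, 5.61, 5.73 and 5.98 at 3 months, and 5.74, 5.95 and 5.66 at 4 months in normal retinas. Mutant retinas read 5.80, 5.90 and 6.12 at 1 month, 6.01, 5.68 and 5.65 at 2 months, 5.94, 6.11 and 6.10 at 3 months, and 5.98, 6.13 and 6.02 at 4 months. The genotypes overlapped at 2 and 3 months, and no single age passed the test. They did not overlap at 1 and 4 months, but were apart by little (nearest values 5.794 and 5.796 at 1 month, 5.95 and 5.98 at 4 months). The mean difference was 0.21 ± 0.05 (limma adjusted p = 0.00859), and the second Fgf14 probe set gave 0.18 ± 0.06 (adjusted p = 0.0261). Quantile normalization repeated on the deposited values ended the call (0.15, adjusted p = 0.0637). Fgf12 (mean signal 8.32) differed by 0.21 with an adjusted p of 0.055, with mutant arrays above normal arrays at 3 and 4 months, and Fgf11 (4.92) by -0.05.

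**Figure D2:**
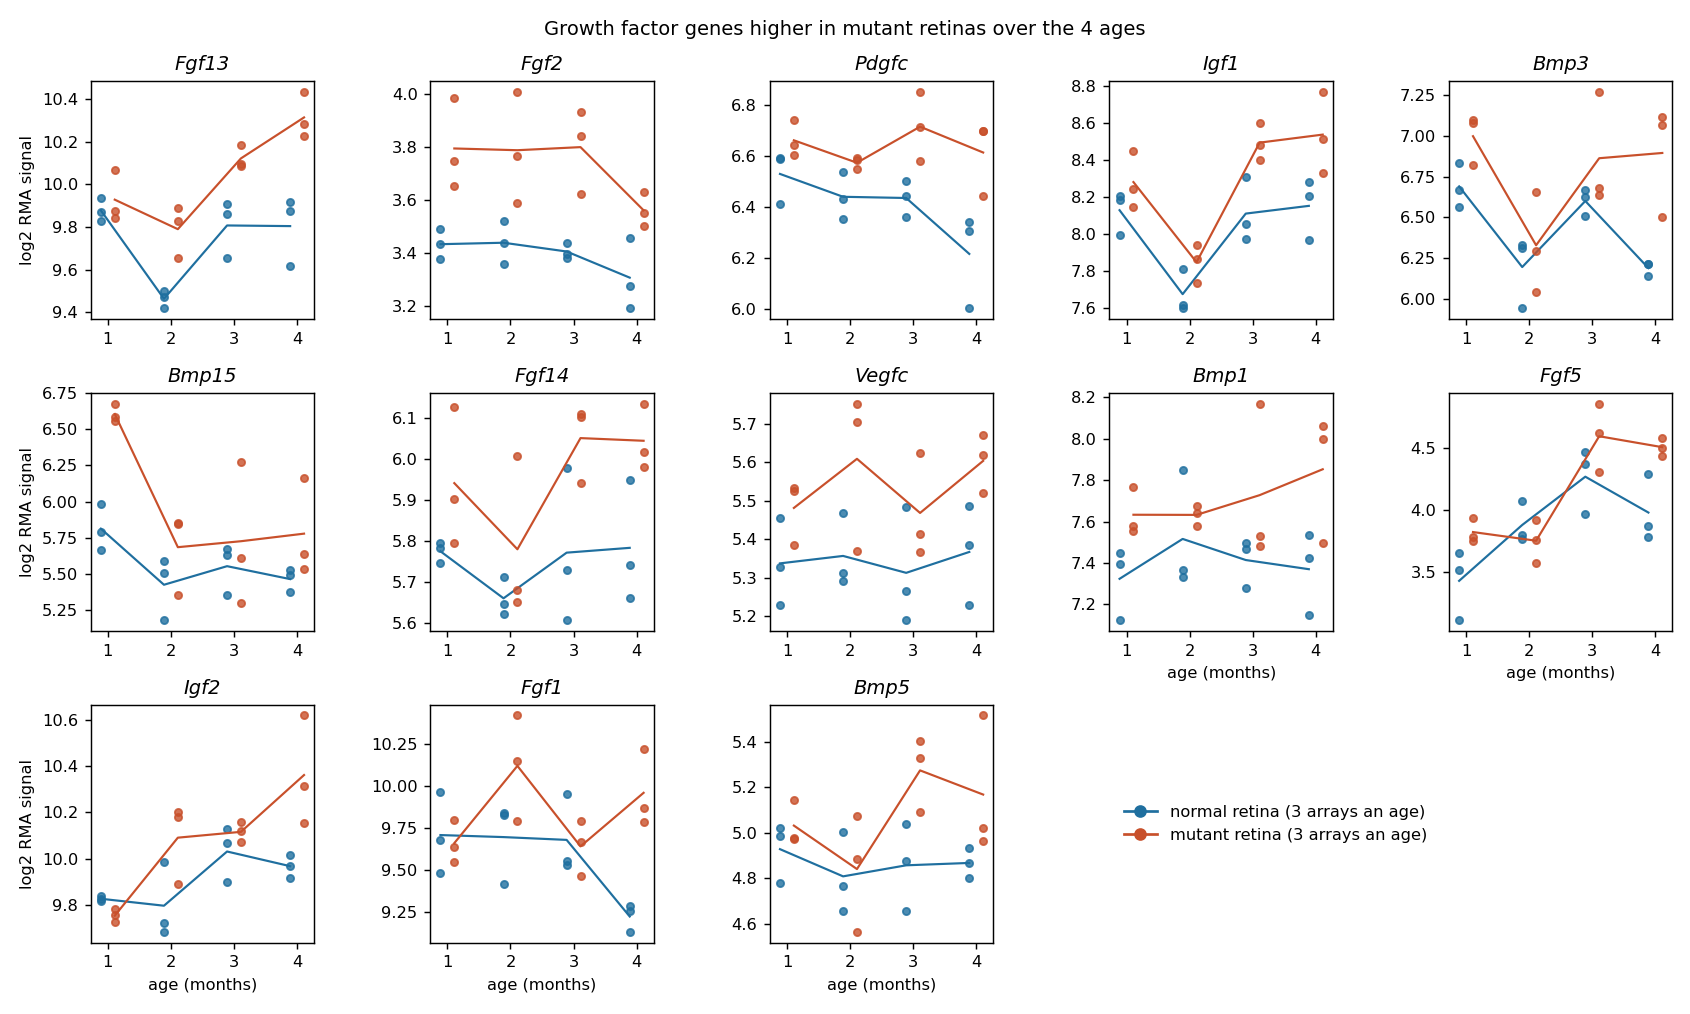
Log2 RMA signal (vertical axes, which do not start at 0) against age in months for the 13 growth factor genes higher in mutant retinas over the 4 ages. Points are the 3 arrays of a genotype and age, lines join group means, and the mutant points of Fgf2 and Pdgfc lie above the normal points at all 4 ages.

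The other 15 FGF genes were not called over the 4 ages. The largest of them in either direction was Fgf3 (known from inner ear development, mean signal 5.0), lower by 0.12 ± 0.05 (limma adjusted p = 0.0601) and lower at all 4 ages. Fgf17 (5.21), Fgf8 (3.81) and Fgf18 (4.66), ligands of 1 subfamily known from brain patterning, differed by -0.09, -0.04 and -0.07. The ligands of the keratinocyte growth factor subfamily, Fgf7 (3.24), Fgf10 (5.71) and Fgf22 (5.49), differed by -0.0003, 0.02 and -0.11. Fgf9 (8.64), Fgf16 (2.75) and Fgf20 (3.76), another subfamily, differed by 0.05, -0.01 and 0.01. Fgf4 (5.19) and Fgf6 (3.40), known from limb bud and muscle, differed by -0.01 and -0.08. The endocrine FGFs, which act through Klotho co-receptors, were Fgf15 (3.98), Fgf21 (4.39) and Fgf23 (2.98), with differences of -0.04, -0.03 and 0.01. Of the 40 growth factor genes not called, 30 had a 95% interval of the difference within -0.2 and 0.2.

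In the BMP family the largest difference was that of Bmp15, an oocyte-derived ligand, and it was largest at 1 month. Its signal in normal retinas was 5.66, 5.79 and 5.98 at 1 month, 5.59, 5.18 and 5.50 at 2 months, 5.67, 5.35 and 5.63 at 3 months, and 5.49, 5.53 and 5.37 at 4 months. In mutant retinas it was 6.56, 6.68 and 6.59 at 1 month, 5.85, 5.84 and 5.35 at 2 months, 5.29, 5.61 and 6.28 at 3 months, and 6.16, 5.64 and 5.53 at 4 months. The 3 mutant arrays of 1 month stood above every other array of the series, and the genotypes overlapped at 2 and 3 months. The difference was 0.79 ± 0.20 at 1 month, 1.73-fold (limma adjusted p = 0.0903), and 0.39 ± 0.10 over the 4 ages (adjusted p = 0.00743). Its probe set has suffix s, and whether it reports Bmp15 alone in retina cannot be read from these arrays.

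Bmp3, an atypical member known to counteract other BMPs, read 6.67, 6.56 and 6.84 at 1 month, 6.31, 5.94 and 6.33 at 2 months, 6.67, 6.51 and 6.62 at 3 months, and 6.21, 6.22 and 6.14 at 4 months in normal retinas. Mutant retinas read 6.82, 7.09 and 7.08 at 1 month, 6.65, 6.29 and 6.04 at 2 months, 6.64, 6.68 and 7.27 at 3 months, and 7.12, 7.07 and 6.51 at 4 months. The groups overlapped at 1, 2 and 3 months, and at 4 months all 3 mutant arrays were above the normal ones. The difference at 4 months was 0.71 ± 0.17, or 1.63-fold (limma adjusted p = 0.00904), and 0.35 ± 0.09 over the 4 ages (adjusted p = 0.00585).

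Bmp1 is no ligand but a protease that matures collagens and cleaves the BMP antagonist chordin. Normal retinas read 7.40, 7.12 and 7.45 at 1 month, 7.37, 7.85 and 7.33 at 2 months, 7.50, 7.47 and 7.28 at 3 months, and 7.53, 7.43 and 7.15 at 4 months. Mutant retinas read 7.77, 7.58 and 7.55 at 1 month, 7.58, 7.64 and 7.67 at 2 months, 7.53, 7.48 and 8.17 at 3 months, and 8.0, 8.06 and 7.50 at 4 months. Only at 1 month did the genotypes not overlap, with single high arrays in mutant retinas of 3 months (8.17) and normal retinas of 2 months (7.85). Over the 4 ages the difference was 0.31 ± 0.09 (limma adjusted p = 0.0146).

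Bmp5, a ligand of the group that holds Bmp6 and Bmp7, read 4.99, 5.02 and 4.78 at 1 month, 5.01, 4.76 and 4.66 at 2 months, 5.04, 4.66 and 4.88 at 3 months, and 4.93, 4.87 and 4.80 at 4 months in normal retinas. Mutant retinas read 4.98, 5.15 and 4.98 at 1 month, 5.07, 4.89 and 4.57 at 2 months, 5.33, 5.40 and 5.09 at 3 months, and 4.97, 5.02 and 5.52 at 4 months. The genotypes overlapped at 1 and 2 months and did not at 3 and 4 months. The difference of 0.21 ± 0.07 (limma adjusted p = 0.0363) was the least stable of the 13: it lost its call in 15 of 34 alternative fits, among them repeated quantile normalization (adjusted p = 0.0815) and the fit without the 3 high-Grifin arrays (0.089). It was also lost on leaving out any 1 of 12 arrays, with adjusted p values up to 0.0735, and its suffix is s.

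The 16 other BMP and GDF genes were not called over the 4 ages. Bmp2 (mean signal 5.43) and Bmp4 (5.50), the closely related ligands that pattern the eye, differed by 0.24 and 0.15, with the widest intervals of the 53 genes (-0.11 to 0.59 and -0.31 to 0.62). Bmp6 (4.74) differed by 0.14 (limma adjusted p = 0.0784), Bmp7 (5.76) by -0.05, Bmp8a (3.85) by -0.07 and Bmp8b (5.30) by -0.06. Bmp10 (4.16) and Gdf2 (5.11), ligands of the endothelial receptor Acvrl1, differed by -0.02 and -0.01. Gdf5 (4.23), Gdf6 (2.92) and Gdf7 (4.08), known from joints and skeleton, differed by -0.07, 0.02 and -0.06. The Nodal-related Gdf1 (7.86) and Gdf3 (4.45) differed by 0.06 and -0.04, and Gdf1 shares its transcript with Cers1, so its signal is uncertain. Gdf9 (5.87), the oocyte partner of Bmp15, differed by -0.03, Gdf10 (4.93), a relative of Bmp3, by 0.02, and Gdf11 (5.37), a relative of myostatin, by -0.02.

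Among the PDGFs and VEGFs Pdgfc and Vegfc rose. Pdgfc, a ligand of Pdgfra that needs cleavage to become active, read 6.59, 6.59 and 6.41 at 1 month, 6.43, 6.35 and 6.54 at 2 months, 6.50, 6.36 and 6.44 at 3 months, and 6.0, 6.34 and 6.31 at 4 months in normal retinas. Mutant retinas read 6.60, 6.64 and 6.74 at 1 month, 6.58, 6.55 and 6.59 at 2 months, 6.58, 6.71 and 6.85 at 3 months, and 6.70, 6.45 and 6.70 at 4 months. The mutant arrays were above the normal arrays at all 4 ages, by little at 1 month (nearest values 6.59 and 6.60) and at 2 months (6.54 and 6.55). The difference was 0.24 ± 0.05 over the 4 ages, or 1.18-fold (limma adjusted p = 0.00108), and 0.40 ± 0.10 at 4 months (adjusted p = 0.00725). Quantile normalization repeated on the values took the first to 0.12 (adjusted p = 0.0921) and the second to 0.23 (adjusted p = 0.137), and its probe set has suffix s.

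Vegfc, a ligand of Flt4 known for lymphatic growth, read 5.45, 5.33 and 5.23 at 1 month, 5.47, 5.31 and 5.29 at 2 months, 5.48, 5.19 and 5.27 at 3 months, and 5.23, 5.39 and 5.49 at 4 months in normal retinas. Mutant retinas read 5.53, 5.39 and 5.53 at 1 month, 5.70, 5.37 and 5.75 at 2 months, 5.37, 5.62 and 5.41 at 3 months, and 5.62, 5.67 and 5.52 at 4 months. The genotypes overlapped at 1, 2 and 3 months and did not at 4 months, and no single age passed the test. The mean difference over the ages was 0.20 ± 0.05 (limma adjusted p = 0.0104).

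Vegfd, the close relative of Vegfc, was called at 2 months only, where it was lower. Normal retinas read 3.81, 3.94 and 3.96 at 1 month, 3.93, 4.27 and 4.55 at 2 months, 3.99, 4.18 and 4.01 at 3 months, and 3.82, 3.96 and 3.98 at 4 months. Mutant retinas read 3.93, 3.73 and 3.82 at 1 month, 3.92, 3.72 and 3.85 at 2 months, 3.98, 3.88 and 4.17 at 3 months, and 4.02, 3.92 and 3.85 at 4 months. At 2 months the 3 mutant arrays were below the 3 normal arrays, of which replicates 2 and 3 (4.27 and 4.55) were the highest of the series. The difference at 2 months was -0.42 ± 0.12 (limma adjusted p = 0.048), and over the 4 ages it was -0.14 ± 0.06 (adjusted p = 0.0991). Vegfa (mean signal 9.75), the main angiogenic factor of the retina, differed by 0.15 (adjusted p = 0.072), with mutant arrays above normal arrays at 1 and at 4 months. Vegfb (9.12), a ligand of Flt1, differed by 0.01. Pdgfa (7.08), which guides astrocytes into the retina, Pdgfb (5.57), which recruits pericytes, and Pdgfd (2.99), a ligand of Pdgfrb, differed by -0.01, 0.07 and 0.11.

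Both IGFs rose. Igf1, which acts through Igf1r, read 8.21, 8.18 and 8.0 at 1 month, 7.81, 7.61 and 7.60 at 2 months, 7.97, 8.05 and 8.31 at 3 months, and 7.97, 8.28 and 8.21 at 4 months in normal retinas. Mutant retinas read 8.24, 8.15 and 8.45 at 1 month, 7.94, 7.87 and 7.74 at 2 months, 8.40, 8.60 and 8.48 at 3 months, and 8.33, 8.52 and 8.77 at 4 months. The genotypes overlapped at 1 and 2 months and not at 3 and 4 months, and both were lowest at 2 months. The difference was 0.38 ± 0.12 at 3 months (limma adjusted p = 0.0379), 0.39 ± 0.12 at 4 months (0.0329) and 0.27 ± 0.06 over the 4 ages, or 1.21-fold (0.0018). The call over the 4 ages was kept in all 35 alternative fits, while those at 3 and at 4 months were each lost in 8 of 36. Quantile normalization repeated on the values gave limma adjusted p values of 0.193 at 3 months and 0.317 at 4 months, and array weights gave 0.0681 at 3 months. At 3 months the call was also lost without normal replicate 1 (0.139) or 2 (0.126) or mutant replicate 2 (0.14) or 3 (0.0914) of that age, by limma's adjusted p. At 4 months the losses were without normal replicate 1 (limma adjusted p = 0.172) or 3 (0.0668) or mutant replicate 2 (0.0743) or 3 (0.17) of that age.

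Igf2, an imprinted growth factor also bound by Igf2r, read 9.82, 9.83 and 9.84 at 1 month, 9.99, 9.72 and 9.69 at 2 months, 10.13, 10.07 and 9.90 at 3 months, and 9.92, 10.02 and 9.97 at 4 months in normal retinas. Mutant retinas read 9.76, 9.78 and 9.73 at 1 month, 10.20, 9.89 and 10.18 at 2 months, 10.16, 10.12 and 10.07 at 3 months, and 10.31, 10.62 and 10.15 at 4 months. At 1 month the 3 mutant arrays lay below the 3 normal arrays, by a mean of 0.07, and at 4 months they lay above. The difference at 4 months was 0.39 ± 0.10 (limma adjusted p = 0.014) and over the 4 ages 0.17 ± 0.05 (adjusted p = 0.0188). Hgf, the ligand of Met, had a mean signal of 2.62 and differed by 0.03.

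Taking each age by itself, limma called 0 growth factor genes at 1 month, where it called 0.321% of all probe sets (0.241% higher and 0.0803% lower). At 2 months it called 1, lower, beside 3.45% of all probe sets (1.52% higher and 1.93% lower). The calls at 3 months were 3, all higher, beside 12% of all probe sets (6.66% higher and 5.38% lower). The calls at 4 months were 7, all higher, beside 12.9% of all probe sets (9.47% higher and 3.45% lower). At 1 month limma gave 7 growth factor genes an unadjusted p under 0.05 (115 of all probe sets), with Bmp15 and Fgf2 (0.36 ± 0.10, adjusted p = 0.155) the nearest to the threshold on the higher side. Those at 3 months were Fgf2 (0.39 ± 0.10, limma adjusted p = 0.0199), Fgf13 and Igf1. Those at 4 months were Fgf1, Fgf5, Fgf13, Bmp3, Pdgfc, Igf1 and Igf2, all 7 of which were also called over the 4 ages, and Fgf13 and Igf1 were called at both ages.

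A count without a model takes the genes whose mutant arrays at an age all lay above, or all below, the normal arrays. At 1 month 8 growth factor genes lay above (10.4% of all probe sets did) and 5 below (11.7%), the latter being Fgf3, Fgf17, Fgf22, Gdf9 and Igf2. At 2 months 5 lay above (9.07%) and 1 below (8.35%). At 3 months 7 lay above (13.2%) and 1, Gdf5, below (19.4%). At 4 months 15 lay above (17.1%) and 2, Fgf6 and Bmp8a, below (12.9%). With 3 arrays against 3 the smallest exact p is 0.1, and a call at a single age therefore uses the spread limma estimates from all groups.

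The calls at single ages depended on few arrays. At 3 months the count was 0 without replicate 1 or 2 of the normal arrays or replicate 3 of the mutant arrays, and 1 without replicate 2 of the mutant arrays. At 4 months it was 3 without replicate 1 of the normal arrays or replicate 2 of the mutant arrays.

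**Figure D3:**
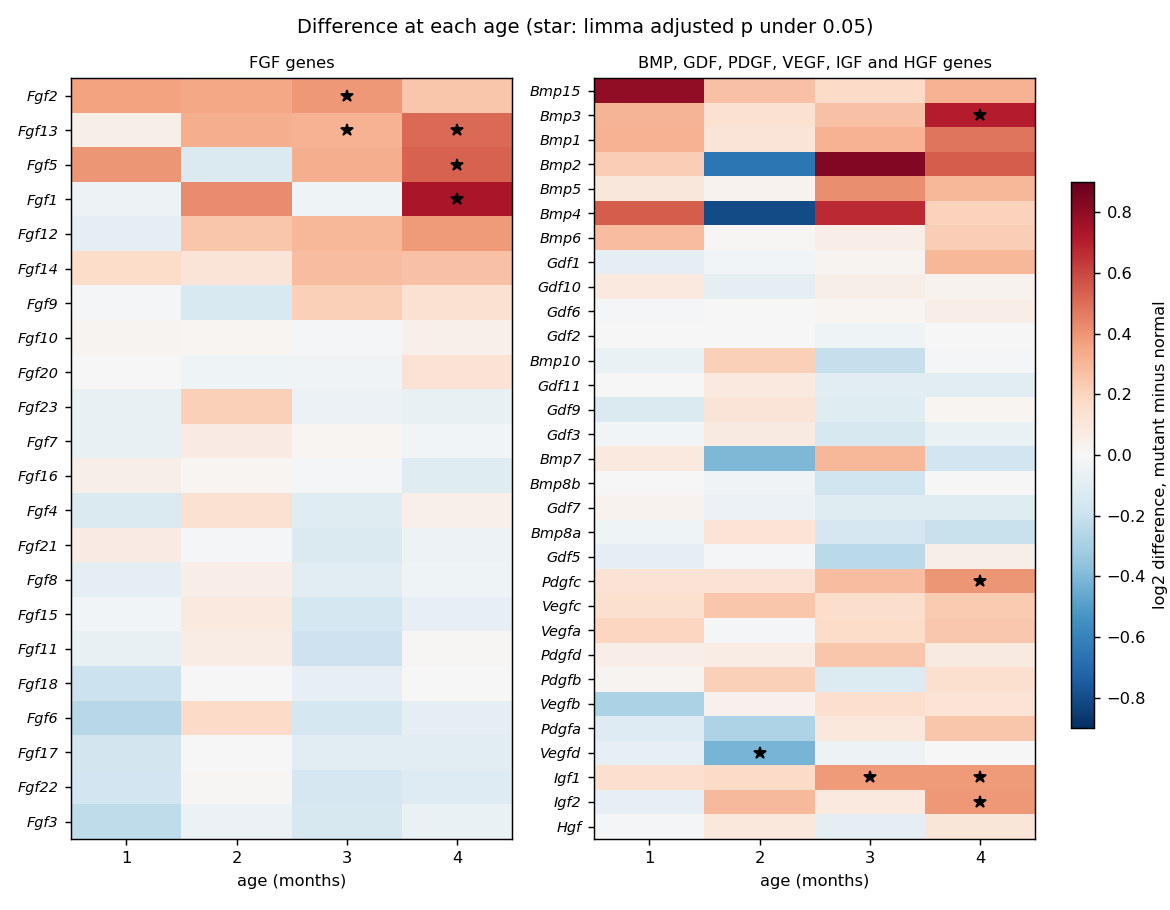
Log2 difference, mutant minus normal, at each age in months (columns) for the 53 growth factor genes (rows, FGF genes on the left, all others on the right); red is higher and blue lower in mutant retinas. Stars mark the limma adjusted p under 0.05: none at 1 month, Vegfd at 2 months, Fgf2, Fgf13 and Igf1 at 3 months, and 7 genes at 4 months.

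Whether the genotype difference itself changed with age was tested directly. No growth factor gene passed the F test over the 4 ages (8 at an unadjusted p under 0.05, and 180 of all probe sets), which called 0.321% of all probe sets. The nearest were Fgf1 (limma adjusted p = 0.193) and Fgf13 (adjusted p = 0.258). Subtracting the 1-month difference from the 4-month difference called 0 growth factor genes as well, beside 0.241% of all probe sets. At an unadjusted p under 0.05 limma counted 6 growth factor genes and 142 of all probe sets (11.4%). The subtraction gave 0.46 ± 0.13 for Fgf13 (limma adjusted p = 0.105), 0.78 ± 0.23 for Fgf1 (0.108) and 0.47 ± 0.15 for Igf2 (0.152). A rise called at 4 months and not at 1 month was therefore not shown to have grown.

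Within a genotype, 4 months were set against 1 month. These comparisons share the arrays of 1 and 4 months with those between genotypes. In mutant retinas 3 growth factor genes rose and 1 fell, beside 2.65% of all probe sets called (1.52% higher and 1.12% lower). Igf2 rose by 0.61 ± 0.10 (limma adjusted p = 0.00317), Fgf5 by 0.69 ± 0.16 (0.0251) and Fgf13 by 0.39 ± 0.09 (0.0251), while Bmp15 fell by 0.83 ± 0.20 (0.0251). For all 4 the arrays of both ages did not overlap. In normal retinas 0 growth factor genes and 0 of the 1246 probe sets passed limma's test. An unadjusted p under 0.05 was given to 5 growth factor genes and to 92 of all probe sets (7.38%). The same genes changed there by 0.14 (Igf2), 0.55 (Fgf5), -0.07 (Fgf13) and -0.35 (Bmp15). In normal retinas too the arrays of both ages did not overlap for Igf2, Fgf5 and Bmp15, while those of Fgf13 did. The share of all probe sets without overlap between these ages was not counted. The count in mutant retinas was 1 without replicate 1 or 2 of 1 month or replicate 2 of 4 months, and 2 without replicate 3 of either age; Igf2 kept its call in all 36 alternative fits.

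The receptors and partners of these ligands were counted over the 4 ages in lists written from general knowledge. Among all probe sets 13.8% were called higher and 8.83% lower in mutant retinas by the same test. Of 7 FGF receptors and co-receptors 4 were measured, and Fgfr1 rose (0.13 ± 0.04, limma adjusted p = 0.0305) while Fgfr2, Fgfr3 and Fgfr4 did not pass (median of the list -0.01, beside -0.04 for all probe sets). Fgfr1 reached 0.37 ± 0.09 at 4 months (adjusted p = 0.00624). Of 7 measured BMP and GDF receptors 2 rose, the type I receptors Acvr1 (0.53 ± 0.07) and Bmpr1b (0.37 ± 0.06), and 2 fell, the type I receptor Bmpr1a (-0.23 ± 0.04) and the type II receptor Acvr2b (-0.28 ± 0.08), with a list median of -0.04. At 4 months Bmpr1b was higher by 0.64 ± 0.12 and Bmpr1a lower by 0.48 ± 0.09, both called. Of the BMP antagonists Fst (follistatin) rose (0.23 ± 0.06) and Nog (noggin) and Chrd (chordin) did not pass.

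Pdgfra, the receptor of Pdgfc, rose by 0.62 ± 0.15 (limma adjusted p = 0.00546), and Pdgfrb, the other measured receptor of that list, did not pass (0.04). Of the IGF and HGF receptors Met rose by 0.70 ± 0.10 (adjusted p = 4.48e-05), while Igf1r (-0.09) and Igf2r (-0.04) did not pass. Heparan sulfate chain genes, whose products shape the cofactor of FGF binding, counted 7 risen and 2 fallen of 23 measured, with a median of -0.0048. Of all probe sets 13.8% rose and 8.83% fell. Sulf1, a sulfatase of the chain, rose by 0.72 ± 0.05, Hs6st2 by 0.34 ± 0.06, Hpse by 0.31 ± 0.09, Extl2 by 0.26 ± 0.05, Ndst3 by 0.26 ± 0.06, Hs3st5 by 0.25 ± 0.04 and Hs3st1 by 0.23 ± 0.05. The chain polymerases Ext1 (-0.61 ± 0.12) and Ext2 (-0.14 ± 0.04) fell.

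Markers of cell types moved with genotype as well, and their part in the growth factor results was not tested. All 4 measured markers of microglia and macrophages of 9 written (Csf1r, Cx3cr1, Adgre1 and Siglech) rose, and the log2 of their summed signal was 7.99 to 8.37 in normal and 8.66 to 9.66 in mutant arrays. All 3 measured markers of Müller glia and astrocytes of 9 written (Cd44, Icam1 and Vcam1, which other cells share) rose, with sums of 7.45 to 8.98 and 8.13 to 9.62. Of the vessel markers (endothelium and pericytes) 6 were measured, with sums of 7.73 to 8.01 and 7.70 to 8.36. Mcam and Cd34 rose, while Pecam1, Emcn, Pdgfrb and Cspg4 did not pass, and the median difference of the list was 0.05. Gnb1, the 1 measured gene of 7 written for rods, fell by 0.21 ± 0.06 (limma adjusted p = 0.0121). Its probe set has suffix s, and whether it reports rods alone cannot be read from these arrays. The ganglion cell marker L1cam did not pass, and 0 cone markers were measured. Mean signals of some listed genes lay below the 25th percentile of all probe sets (3.83), where background is not known. Expression of rhodopsin was not analysed here, so the genotype labels were not checked against the transgene.

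Some arrays stood apart in genes of tissue next to the retina. Grifin, a lens gene, was 10.16 to 11.33 in 3 arrays (normal and mutant retinas of 2 months replicate 2, normal retinas of 4 months replicate 1) and 5.69 to 8.77 in the other 21. Dcn (decorin), a gene of connective tissue, peaked at 6.90 in the third array of the normal 2-month retinas. That array had the highest signal of all 24 for Bmp2 (6.79), Bmp4 (7.48), Bmp7 (6.58), Vegfd (4.55) and Pdgfa (7.58). Normal retinas of 2 months replicate 2, with a Dcn signal of 6.45, had the next highest for Bmp4 (6.31), Bmp7 (6.35), Vegfd (4.27) and Pdgfa (7.48). Other arrays with high Dcn gave mixed values for these genes. Replicate 3 of the mutant 3-month retinas (Dcn 5.87) read 6.22, 6.08, 6.09, 4.17 and 7.03 for Bmp2, Bmp4, Bmp7, Vegfd and Pdgfa. Mutant retinas of 4 months replicate 3, with the second highest Dcn signal (6.51), read 6.06 for Bmp2 and 6.13 for Bmp4, but 5.71 for Bmp7, 3.85 for Vegfd and 7.0 for Pdgfa, below the mean signals of Bmp7 and Pdgfa given above. At 2 months Bmp2, Bmp4 and Bmp7 differed by -0.65, -0.81 and -0.40, against 0.83, 0.67 and 0.30 at 3 months, none of them called. Dcn itself differed by -1.48 at 2 months and 0.77 at 3 months, also not called. Whether these signals are linked was not tested.

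The call of Vegfd at 2 months lay close to the threshold (adjusted p = 0.048) and was lost in 23 of 36 alternative fits, among them 18 of the 24 that left out 1 array. In 13 of those 18 the array left out was of another age, the difference stayed at -0.42 and the limma adjusted p was at most 0.0599. The difference itself was smaller in some fits that took the arrays that stood apart into account. Whether those arrays account for it was not tested. Adjusted for Grifin and Dcn as covariates it was -0.27 ± 0.13 (limma adjusted p = 0.484), without normal replicate 3 of that age -0.27 (0.285), and without the 3 high-Grifin arrays -0.35 ± 0.15 (0.382). The labels state no pairing, but deviations from group means correlated between same-numbered arrays at 2 months. Both replicate 2 arrays of that age had a high Grifin signal, so a pairing and a shared lens signal cannot be told apart. With the replicate numbers as a block Vegfd had a limma adjusted p of 0.0994, or 0.191 in the 6 arrays alone. In those 6 arrays Bmp4 was called instead (-0.81 ± 0.14, limma adjusted p = 0.0292). At 4 months 4 of the 7 genes were called without the high-Grifin arrays, those lost being Fgf5 (adjusted p = 0.152), Igf1 (0.194) and Pdgfc (0.0703). Over the 4 ages 11 of the 13 genes kept their call without those arrays, all but Fgf5 and Bmp5.

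**Figure D4:**
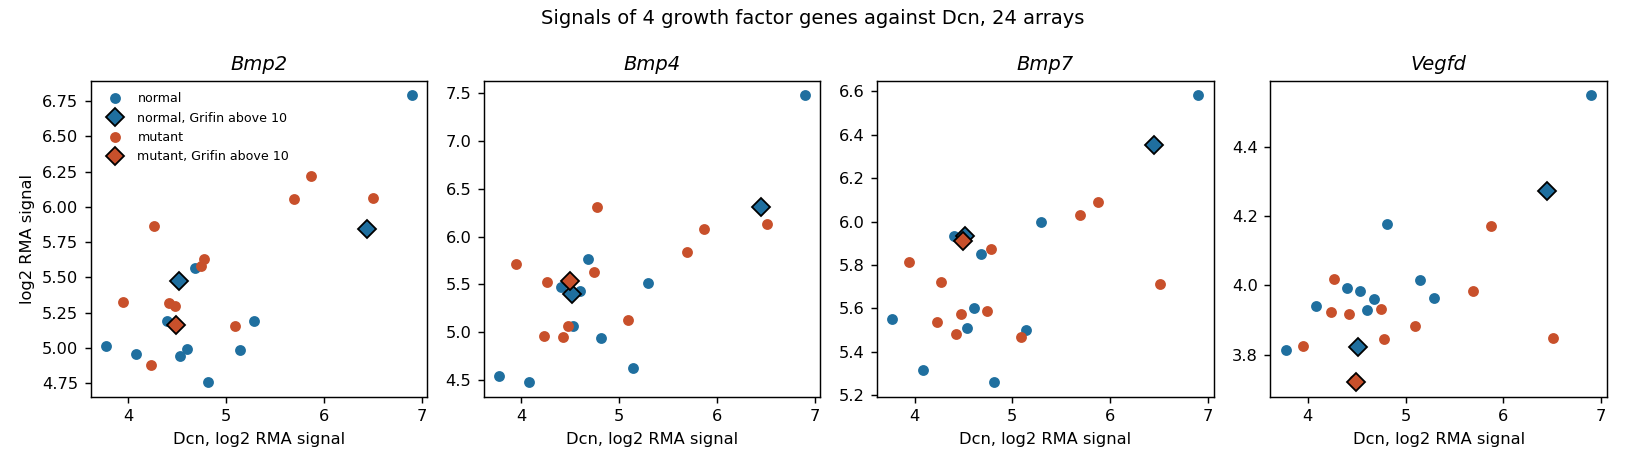
Log2 RMA signals of Bmp2, Bmp4, Bmp7 and Vegfd (vertical axes, which do not start at 0) against the log2 RMA signal of Dcn (horizontal axes) in each of the 24 arrays, coloured by genotype, with the 3 high-Grifin arrays as diamonds. The normal array with the highest Dcn signal (6.90) is also the highest for all 4 genes.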

How the data were processed

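The authors deposited log2 signals per probe set and array, made with RMA per the submitters' processing notes; its version, the arrays normalized together and the genome build of the probes are not given in the sources used here. Per the labels, Trizol-extracted total RNA was converted to biotinylated cRNA. Each column was matched to a sample by its title, and 0 columns were left over. Nothing was rescaled. Values ran from 1.9 to 14.17, with array medians of 5.15 to 5.34. Probe sets were named through transcript accessions and a RefSeq gene table, which left 284 unnamed. The suffixes s (10 growth factor genes), x (2) and a (2) are given to probe sets that can also detect other transcripts.

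In R 4.3.3 with limma 3.58.1, one mean for each of 8 groups was fitted to 24 arrays (lmFit and eBayes, 16 residual and 4.37 prior degrees of freedom). P-values are 2-sided and adjusted by Benjamini-Hochberg over 1246 probe sets per contrast, errors are standard errors, and the fit was tested on simulated data. Of 12 pairs of same-numbered arrays, deviations from group means correlated above 0.1 in 3, all at 2 months (r = 0.33, 0.66 and 0.25). The numbers were therefore taken to pair arrays at that age only. The labels state no such pairing, and with 3 arrays a group these correlations do not stand independently of each other. Every growth factor gene is named, with all array values for those called in any contrast; genes of the pathway lists are named where called or needed to complete a list. The genes and lists were chosen with earlier results of these data known. The alternatives were array-median centring, quantile normalization again, leaving out probe sets below the 25th percentile (3.83) or the median (5.26) of mean signal, an intensity trend, robust eBayes, array weights, only the arrays compared, the replicate block, the other probe set of a gene and each array left out. Added after seeing the data were the fits without the 3 high-Grifin arrays, with Grifin and Dcn as covariates, and with the block on the 6 arrays of 2 months.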

Additional observations from a re-analysis of the deposited data

How the results depend on the processing

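Over the 4 ages the 13 calls came to 12 to 16 when each array was left out in turn. They stayed within 1.5 times under the 11 other alternatives. None of the 13 reversed sign, and the largest shift of the median of all probe sets by a scaling was 0.03. Some alternatives called a gene lower. Quantile normalization again kept 10 of the 13 and called Fgf3 lower (limma adjusted p = 0.0416). Vegfd was called lower with array weights (limma adjusted p = 0.048) and without normal retinas of 2 months replicate 1 (0.0132). Without replicate 2 of those retinas Fgf3 was called lower (limma adjusted p = 0.0431). At 1 month the count of 0 became 3 with array weights and 1 in the arrays compared alone (0 to 1 leaving arrays out). At 2 months the count of 1 became 2 with quantile normalization again and with the 25th percentile filter, and 0 in the arrays compared alone, with the replicate block, without the 3 high-Grifin arrays and with the Grifin and Dcn covariates (0 to 3). At 3 months the count of 3 became 0 in the arrays compared alone and 5 with the replicate block (0 to 4). The block adds Bmp2 (limma adjusted p = 0.0296) and Bmp5 (0.0492), at an age where the numbers were not taken to pair the arrays. At 4 months the count of 7 became 3 in the arrays compared alone and 4 without the high-Grifin arrays (3 to 8). The F test gave 2 in place of 0 with array weights (0 to 1). The 4-month difference less the 1-month difference gave 1 with quantile normalization again (Fgf13) and 4 with array weights (0 to 1). Between 4 months and 1 month, normal retinas gave 4 in place of 0 with array weights (0 to 0) and mutant retinas 1 to 4 in place of 4. Without mutant retinas of 3 months replicate 3 or of 2 months replicate 3, Bmp15 was called at 1 month (adjusted p = 0.0182 and 0.0479), and without normal retinas of 2 months replicate 1 the count at 2 months was 3. The causes of these shifts were not tested. Of the 53 genes 10 had a mean signal below the 25th percentile of all probe sets and 18 between it and the median. The arrays' background level was not used here, so folds of these dim genes are uncertain.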

Other observations

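Gdf10 was high in 2 of the 3 arrays with a Grifin signal above 10. It read 5.33 in array 2 of normal retinas at 2 months and 5.27 in array 1 of normal retinas at 4 months, where the 21 arrays with lower Grifin ran from 4.51 to 5.14; array 2 of mutant retinas at 2 months, at 5.05, lay within that range. Fgf12 was low in all 3 of these arrays, at 7.88, 7.94 and 7.96 against 8.05 to 8.75, a range that none of the 3 reached. The first 2 of these values are of 2 months, the age at which Fgf12 was lowest in both genotypes (means 8.02 in normal and 8.27 in mutant retinas). For those arrays age and the Grifin signal cannot be told apart. The share of all probe sets set apart in this way was not counted. Adjusted for Grifin and Dcn as covariates, Fgf12 was higher in mutant retinas over the 4 ages by 0.19 ± 0.07 (limma adjusted p = 0.045) and Fgf3 lower by 0.13 (adjusted p = 0.0376).

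The FGF relative Fgf13 and Igf1 were lowest at 2 months in both genotypes. Group means of Fgf13 at 1, 2, 3 and 4 months were 9.88, 9.46, 9.81 and 9.80 in normal retinas and 9.93, 9.79, 10.12 and 10.31 in mutant retinas. Those of Igf1 were 8.13, 7.67, 8.11 and 8.15 in normal retinas and 8.28, 7.85, 8.49 and 8.54 in mutant retinas. The dip was not particular to these genes, since Fgf9, Fgf10, Fgf12, Fgf14, Bmp5 and Vegfa were among others lowest at 2 months in both genotypes. For Vegfa the means were 9.76, 9.57, 9.65 and 9.74 in normal retinas and 9.95, 9.56, 9.82 and 9.99 in mutant retinas. Changes between neighbouring ages were not tested.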
